A study of Mus musculus with 6 samples.

Results

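The genes described here are the secreted Wnt ligands, their Frizzled receptors, and 2 families of secreted inhibitors, Sfrp and Dkk, in the ductus arteriosus (DA) of mouse embryos. Members were taken by gene symbol from the deposited expression table, which gave 37 of its 23997 genes: 19 Wnt ligands, 10 Frizzled receptors, 4 Sfrp genes, and 4 Dkk genes. The DA, the fetal artery that joins the pulmonary artery to the aorta, was taken from C57BL/6 embryos at E17.5 without treatment, and bulk RNA-Seq gave 3 libraries labelled WT (wild type) and 3 labelled KO. The KO genotype is Prdm6f/f with SM22-Cre, in which floxed *Prdm6* is exposed to Cre-recombinase made in smooth muscle cells (SMCs). Which cells of the vessel lost or kept the gene cannot be read from bulk tissue. Whether the WT embryos carried floxed alleles or Cre, and whether a library came from 1 embryo or several, is not given in the sources used here, so p values measure the spread between these libraries only. The study asked about *Wnt1* in a neural crest cell line and in much younger embryos that lost *Prdm6* through another Cre driver. The comparison of KO with WT here asks where the Wnt genes stood later, in the vessel itself, and does not test that result.

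Wnt ligands are lipid-modified proteins that act on neighbouring cells. A ligand binds a Frizzled receptor together with a co-receptor such as Lrp5 or Lrp6, which stabilizes β-catenin and lets it activate genes with TCF/LEF factors, or it signals through Ror2 and the planar polarity proteins without β-catenin. Sfrp proteins resemble the ligand-binding part of Frizzled and bind Wnt proteins outside the cell, whereas Dkk1, Dkk2, and Dkk4 bind the Lrp co-receptors, and Dkk3 is a divergent relative. In blood vessels the pathway takes part in the growth and specification of SMCs and endothelium, and in the embryo it induces the neural crest, from which the SMCs of the DA arise.

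Values are given in FPKM, which divides the fragments of a gene by its transcript length and by the size of the library. They hold no counts, so the total depth is unknown, and the steps between low values put each library at between 0.929 and 1.19 times WT1 in relative depth. Library WT2 listed 11886 genes at 0, the most of the 6. Of the 3506 genes whose mean was 20 FPKM or more, 61 were at 0 in WT2, so a 0 can be a failed estimate. Each other library had between 34 and 45 such genes. Among genes with a mean of 1 to 5 FPKM in the other libraries, 33.6% were at 0 in WT2. The same share was between 2.96% and 14.1% for each other library. A 0 in WT2 lowers the WT mean of a low gene. The FPKM of *Prdm6* was 41.7, 48.4, and 19.8 under the WT label and 48.6, 27.1, and 15.4 under the KO label. The highest value was in a library labelled KO, whereas the paper reports lower *Prdm6* by qRT-PCR in the DA of mice of this genotype. The floxed part of the gene is not given in the sources used here, so whole-gene FPKM cannot settle whether the labels are right. *Xist* was at 67.0 FPKM in WT0, 81.0 in KO0, and 82.8 in KO1, and at between 0.0431 and 0.0530 elsewhere. The Y-linked *Ddx3y* was at 24.0 FPKM in WT1, 23.4 in WT2, 26.4 in KO0, and 20.1 in KO2. It was at 0 in WT0 and 0.383 in KO1. Library KO0 thus held both, and sex varied within each group and was not in the model. WT1 and KO2 were highest in heart muscle transcripts, with WT2 next at a marker sum of 542 FPKM. All directions below rest on the deposited labels. The SMC marker *Acta2* was at between 396 and 2262 FPKM, *Tagln* at between 216 and 1350, and *Myh11* at between 65.6 and 749. The summed FPKM of 10 of 10 SMC markers was between 2542 and 5833 in WT and between 925 and 2433 in KO, without overlap, and 10 of 10 Schwann cell markers summed to between 16.9 and 40.3 in WT and between 49.5 and 180.02 in KO, also without overlap. The summed neuron markers, given beside *Dkk2*, did not overlap either, whereas those of all other lists did, with fibroblast markers given beside the Sfrp genes. The range in WT and then in KO was 380.3 to 555 and 445 to 716 for 10 endothelial genes, 4355 to 8749 and 4980.2 to 27521 for 8 erythroid genes, and 45.3 to 249.8 and 48.5 to 289.8 for 9 macrophage genes. It was 69.7 to 239 and 87.4 to 206 for 10 genes of mesothelium and epithelium, 40.7 to 52.7 and 36.1 to 57.8 for 8 cartilage genes, and 59.3 to 1292 and 128 to 1369.6 for 10 heart muscle genes. *Hba-a2* and *Matn1* were at 0 throughout.

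The 3 smallest p values among the members fell to secreted inhibitors, but p values do not rank the size of a difference. The scarcer ligands *Wnt11* and *Wnt2* had larger estimates (log2 fold change 2.55 and -2.12) with wider errors (SE 1.27 and 1.41). *Sfrp2* and *Sfrp1* were lower and *Dkk2* was higher in every library labelled KO. No member passed the adjusted threshold, and a p that misses it does not show that levels were alike. Of the 37 members, 22 had a mean FPKM of at least 1 and were tested: 8 ligands, 8 receptors, 4 Sfrp genes, and 2 Dkk genes. In limma on log2(FPKM + 0.1), 0 of the 22 had an adjusted p under 0.05, where 0.00772% of all 12955 genes tested (1 gene) did. The paper, which names Cuffdiff and gives a larger group size, reports many more differentially expressed genes in the DA of this genotype. The count of 1 gene thus holds for this fit only. An unadjusted p under 0.05 was reached by 3 members, 2 of them lower and 1 higher in KO, against 8.28% of all genes tested. The groups did not overlap for 7 of the 22, 4 lower and 3 higher, where 16.1% of all genes tested did not overlap. The median log2 fold change of the 22 was -0.03, and that of all genes tested was 0.07. With 3 libraries against 3, a two-sided exact permutation test cannot give a p under 0.1.

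**Figure D1:**
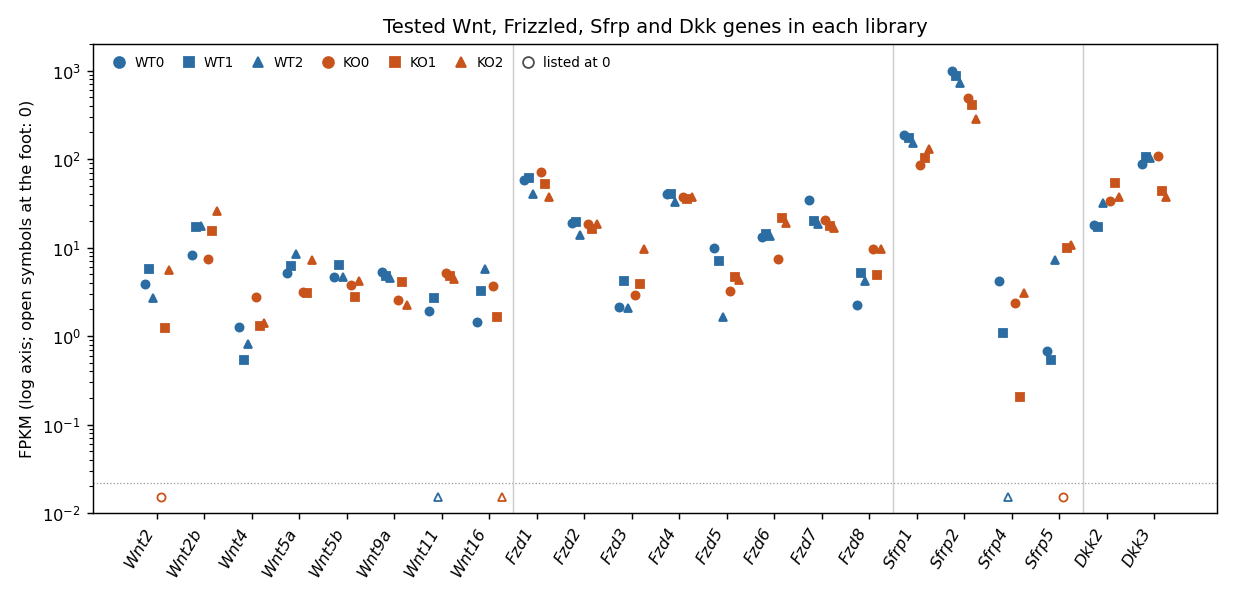
FPKM (log axis) of the 22 tested members in each of the 6 libraries, with WT in blue, KO in orange, 1 symbol shape for each replicate number, and open symbols at the foot for values listed at 0. *Sfrp2* was the most abundant member in every library, and its 3 KO values lay below its 3 WT values.

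Most Wnt ligands were scarce in the DA. The summed FPKM of the 19 ligand genes was 32.3, 48.7, and 46.9 in WT and 30.7, 36.1, and 53.6 in KO, so the groups overlapped. *Wnt1*, the ligand that marks the dorsal neural tube and early neural crest, was listed at 0 in all 6 libraries, as were *Wnt3a*, *Wnt7a*, *Wnt8a*, and *Wnt10a*. *Wnt3*, *Wnt6*, *Wnt7b*, *Wnt8b*, *Wnt9b*, and *Wnt10b* were above 0 in at least 1 library but below the mean FPKM of 1 and were not tested. *Wnt3* was above 0 in KO1 alone (0.737 FPKM), *Wnt8b* in KO2 alone (0.214), and *Wnt9b* in WT1 alone (0.162), and *Wnt7b* reached 0.593 in KO0. *Wnt6*, an epithelial ligand, was at 0.389, 0.288, and 0 FPKM in WT and 0.518, 0.865, and 2.01 in KO. *Wnt10b* was at 0, 1.75, and 2.57 FPKM in WT and at 1.14, 0, and 0.148 in KO.

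*Wnt2b* was the leading ligand, with between 24.3% and 48.8% of the summed ligand FPKM of a library. It was at 8.29, 16.9, and 17.6 FPKM in WT and at 7.46, 15.5, and 26.2 in KO. The groups overlapped, with the lowest and the highest value both in KO, and the log2 fold change was 0.10 (standard error, SE, 0.50, adjusted p = 0.96 from limma). *Wnt5a*, which signals through Ror2 and guides cell movement, was at 5.23, 6.26, and 8.46 FPKM in WT and at 3.13, 3.11, and 7.31 in KO. The 2 lowest values were in KO, but KO2 stood above WT0 and WT1, and the log2 fold change was -0.64 (SE 0.48, adjusted p = 0.705 from limma).

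The close relative of *Wnt5a*, *Wnt5b*, was at 4.67, 6.38, and 4.65 FPKM in WT and at 3.77, 2.73, and 4.15 in KO. Each KO value lay below each WT value, with a log2 fold change of -0.55 (SE 0.42, adjusted p = 0.714 from limma). The gene *Fbxl14* lies within *Wnt5b* on the opposite strand, and opposite-strand genes also overlap *Sfrp2*, *Wnt5a*, *Wnt7b*, and further members. Whether the libraries kept the strand is not given in the sources used here, so reads of such pairs may not be told apart. *Wnt9a*, a ligand of skeletal and joint development, was at 5.27, 4.75, and 4.499 FPKM in WT and at 2.53, 4.03, and 2.25 in KO. These groups did not overlap either, and the log2 fold change was -0.74 (SE 0.46, adjusted p = 0.675 from limma).

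For *Wnt11* and *Wnt4* each KO value lay above each WT value. *Wnt11*, a ligand of planar polarity signalling that is active in the cardiac outflow tract, was at 1.92, 2.67, and 0 FPKM in WT and at 5.10, 4.75, and 4.36 in KO. KO values were alike and WT values were not, and the log2 fold change was 2.55 (SE 1.27, unadjusted p = 0.0807, adjusted p = 0.624 from limma). The size of this difference turned on the 0 in WT2. Without that library it was 1.03, and with a pseudocount of 1 it was 1.38. *Wnt4*, best known from the kidney and gonad, was at 1.26, 0.536, and 0.809 FPKM in WT and at 2.77, 1.297, and 1.42 in KO. WT0 and KO1 were close to each other, and the log2 fold change was 0.99 (SE 0.87, adjusted p = 0.736 from limma).

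The remaining tested ligands, *Wnt2* and *Wnt16*, had large estimates with wide errors, and each was listed at 0 in 1 KO library. *Wnt2* was at 3.83, 5.70, and 2.67 FPKM in WT and at 0, 1.25, and 5.56 in KO. KO2 was as high as WT1, and the log2 fold change was -2.12 (SE 1.41, adjusted p = 0.687 from limma), which became -0.53 without KO0. *Wnt16* was at 1.43, 3.23, and 5.69 FPKM in WT and at 3.69, 1.66, and 0 in KO, with a log2 fold change of -1.82 (SE 1.41, adjusted p = 0.716 from limma). The groups overlapped for both genes, and without KO2 the value for *Wnt16* was -0.26.

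Frizzled receptors were expressed at higher levels than their ligands, and no receptor had groups that did not overlap. The 10 receptor genes summed to 179, 174, and 127 FPKM in WT and to 171, 156, and 154 in KO. The mean sums were 160.1 ± 28.5 (SD, n = 3) and 160.2 ± 9.29 (SD, n = 3). The sum of the receptors was between 2.71 and 5.57 times the sum of the ligands in the 6 libraries. *Fzd1* led in 5 of the 6 libraries, with 58.2, 61.5, and 40.8 FPKM in WT and 71.4, 51.7, and 37.0 in KO. Its log2 fold change was -0.03 (SE 0.28, 95% interval from -0.68 to 0.62 from limma).

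*Fzd4*, the receptor for Norrin and for Wnt proteins in endothelium, was the steadiest of the abundant members. It was at 40.0, 40.8, and 32.8 FPKM in WT and at 37.2, 35.6, and 37.4 in KO. The log2 fold change was -0.04, with an SE of 0.17 and a 95% interval from -0.43 to 0.36 from limma, so a doubling or halving lay outside that interval. *Fzd7*, a receptor of mesenchymal and stem cells, was at 34.5, 20.2, and 18.5 FPKM in WT and at 20.4, 17.4, and 16.8 in KO. WT0 stood apart from the rest, and the log2 fold change of -0.37 (SE 0.28, adjusted p = 0.712 from limma) was -0.09 without it. *Fzd2* was at between 13.8 and 19.6 FPKM and *Fzd6*, a planar polarity receptor, at between 7.48 and 21.7 FPKM in the 6 libraries, with log2 fold changes of 0.03 and 0.09.

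*Fzd8* had the largest estimate among the receptors. It was at 2.26, 5.12, and 4.22 FPKM in WT and at 9.61, 4.95, and 9.55 in KO. KO0 and KO2 were above every WT library, whereas KO1 lay within the WT range. The log2 fold change was 1.05 (SE 0.48, unadjusted p = 0.0623, adjusted p = 0.611 from limma). *Fzd3*, a receptor that guides axons, was at between 2.09 and 4.14 FPKM in WT and at 2.92, 3.86, and 9.70 in KO, and *Fzd5* was at between 1.63 and 9.86 FPKM in WT and between 3.24 and 4.66 in KO. Neither passed the test (adjusted p = 0.702 and 0.911 from limma). *Fzd9* was at 0, 1.17, and 0 FPKM in WT and at 0.195, 0.203, and 1.06 in KO, *Fzd10* was above 0 in KO2 alone (0.297), and neither was tested.

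**Figure D2:**
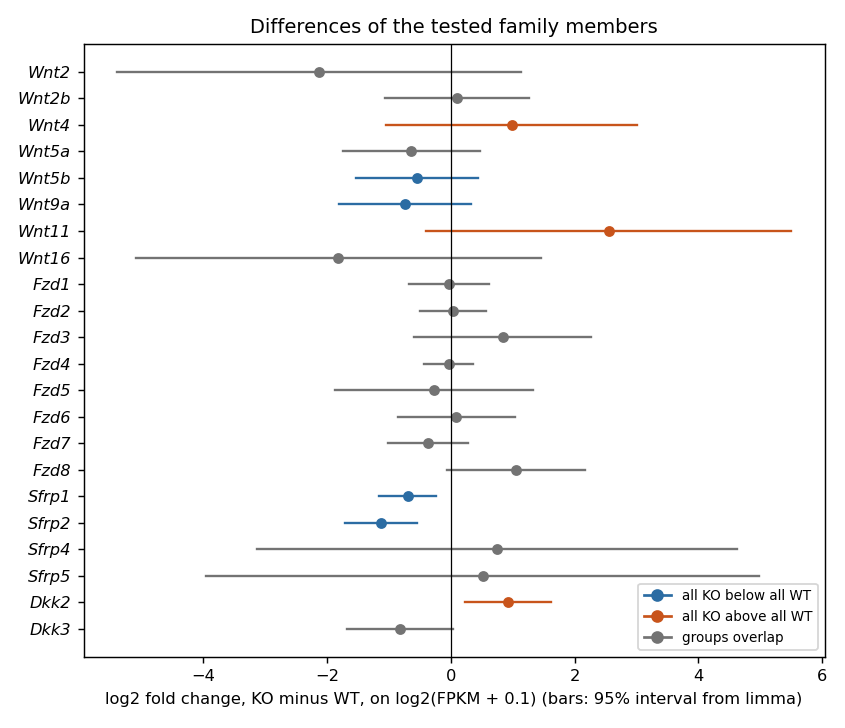
Log2 fold change (KO minus WT, on the log2(FPKM + 0.1) scale) of each tested member with its 95% interval from limma, in blue where all KO values lay below all WT values, in orange where all lay above, and in grey where the groups overlapped. The intervals of *Sfrp1*, *Sfrp2*, and *Dkk2* exclude 0 before adjustment, and those of the other 19 members include it.

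Sfrp transcripts far exceeded those of the ligands and receptors. The 4 Sfrp genes summed to 1170, 1041, and 875 FPKM in WT and to 583, 521, and 432 in KO, and every KO library lay below every WT library. The ratio of the mean sums, KO over WT, was 0.498. The Sfrp sum was 36.3, 21.4, and 18.6 times the ligand sum in WT and 19.0, 14.4, and 8.06 times in KO. *Sfrp2* (ENSMUSG00000027996.13, chromosome 3 of GRCm38 from 83766321 to 83774316) made up between 66.4% and 84.9% of the sum. Its FPKM was 978, 868, and 717 in WT and 495, 409, and 287 in KO, or 854 ± 131 (SD, n = 3) and 397 ± 105 (SD, n = 3). The lowest WT value was above the highest KO value by more than the SD of either group. The log2 fold change was -1.13 (SE 0.25, 95% interval from -1.71 to -0.55, unadjusted p = 0.00224, adjusted p = 0.414 from limma). By unadjusted p from limma, *Sfrp2* ranked 70 of 12955 genes. In mean FPKM, 13 genes had a larger difference in the same direction. That second rank also depends on abundance, and 83 of the genes tested had a higher mean FPKM than *Sfrp2*. The antisense gene *Gm26771* overlaps the end of *Sfrp2*, so the strand limit given for *Wnt5b* holds here too.

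*Sfrp1* (ENSMUSG00000031548.7, chromosome 8 from 23411502 to 23449632) had the same direction and a smaller difference. Its FPKM was 188, 172, and 151 in WT and 85.7, 102, and 132 in KO, or 170 ± 18.6 (SD, n = 3) and 106 ± 23.3 (SD, n = 3). The groups did not overlap, and the library with the lowest *Sfrp2*, KO2, had the highest *Sfrp1* of the KO group. The log2 fold change was -0.70 (SE 0.20, 95% interval from -1.16 to -0.23, unadjusted p = 0.00885, adjusted p = 0.524 from limma). *Sfrp2* exceeded *Sfrp1* by 5.20, 5.04, and 4.76 times in WT and by 5.78, 4.02, and 2.18 times in KO. When single libraries were left out, the log2 fold change ranged between -1.31 and -0.91 for *Sfrp2* and between -0.86 and -0.55 for *Sfrp1*. Both had an unadjusted p under 0.05 in 17 of 17 alternative fits and an adjusted p under 0.05 in none.

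The summed SMC markers were lower in every KO library, as both Sfrp genes were. Within KO, however, the library with the lowest SMC sum, KO2, had the highest *Sfrp1* and the lowest *Sfrp2*. Of the 10 SMC markers, 6 had an unadjusted p under 0.05 and all of those were lower in KO, against 4.97% of all genes tested. In values computed after the FPKM had been seen, *Sfrp2* was 16.8%, 29.7%, and 28.2% of the summed SMC marker FPKM in WT and 20.4%, 22.5%, and 31.03% in KO, so that the groups overlapped. For *Sfrp1* the share was 3.22%, 5.89%, and 5.93% in WT and 3.52%, 5.602%, and 14.2% in KO, which also overlapped. Fewer SMCs and less RNA of a gene per cell cannot be told apart in bulk tissue, and the part of cell makeup in the Sfrp difference was not tested. Fibroblast markers overlapped between groups, at between 2559 and 5220 summed FPKM in WT and between 1891.0 and 4258 in KO over 10 of 10 genes, of which 3 were lower and 1 higher in KO at an unadjusted p under 0.05.

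The other Sfrp genes were low and erratic. *Sfrp5* was at 0.682, 0.542, and 7.26 FPKM in WT and at 0, 10.01, and 10.6 in KO, with a log2 fold change of 0.52 (SE 1.92, adjusted p = 0.944 from limma). KO0 alone was listed at 0 while KO1 and KO2 were the 2 highest. *Sfrp4* was at 4.18, 1.08, and 0 FPKM in WT and at 2.38, 0.206, and 3.07 in KO, with a log2 fold change of 0.75 (SE 1.67, adjusted p = 0.893 from limma). *Frzb*, which encodes the Sfrp3 protein but carries another symbol and is not counted among the 37 members, was at 9.74, 7.94, and 0.031 FPKM in WT and at 71.3, 29.2, and 13.8 in KO. Its direction was opposite to that of *Sfrp1* and *Sfrp2*, with a log2 fold change of 3.82 (SE 1.57, unadjusted p = 0.0429, adjusted p = 0.591 from limma) that was 1.79 without WT2.

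Among the Dkk genes, *Dkk3* and *Dkk2* carried nearly all of the signal, and their balance differed between libraries. *Dkk2* (ENSMUSG00000028031.6, chromosome 3 from 132085292 to 132180304), an Lrp6-binding protein that can inhibit or weakly activate the pathway, was at 18.2, 17.1, and 31.8 FPKM in WT and at 34.0, 53.9, and 37.4 in KO. This is 22.4 ± 8.17 (SD, n = 3) against 41.8 ± 10.7 (SD, n = 3), and the groups did not overlap, although WT2 came within the SD of the lowest KO library. The log2 fold change was 0.93 (SE 0.30, 95% interval from 0.23 to 1.62, unadjusted p = 0.0156, adjusted p = 0.545 from limma). It stayed between 0.73 and 1.21 with each library left out, and the unadjusted p was under 0.05 in 12 of 17 alternative fits. The other 5 gave 0.0563 without WT1, 0.0501 without WT0, 0.062 without KO1, 0.0799 without WT1 and KO2, and 0.056 without the moderation of variances.

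Schwann cell markers were higher in KO, as *Dkk2* was, with 6 of 10 at an unadjusted p under 0.05 against 3.31% of all genes tested in that direction, and 10 of 10 neuron markers summed to between 18.7 and 37.3 FPKM in WT and between 44.9 and 78.6 in KO, without overlap. Within WT, WT2 had both the highest Schwann sum and the highest *Dkk2*. Within KO, KO2 had the highest Schwann sum (180.02 FPKM) and KO1 the highest *Dkk2* (53.9 FPKM). Of 7 tested erythroid markers, 3 were also higher in KO at an unadjusted p under 0.05 from limma. The part of nerve tissue or blood in the *Dkk2* difference was not tested.

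*Dkk3* (ENSMUSG00000030772.6, chromosome 7 from 112116017 to 112159057) was at 88.8, 107, and 104 FPKM in WT and at 107, 44.1, and 37.6 in KO. KO0 was the highest of the 6 libraries and the other KO libraries were the lowest. The log2 fold change was -0.82 (SE 0.37, unadjusted p = 0.0595, adjusted p = 0.611 from limma), and without KO0 it was -1.29 with an unadjusted p of 0.000347 and an adjusted p of 0.34 from limma. This was the 1 fit of 17 alternatives with an unadjusted p under 0.05. The other fits without a single library gave an unadjusted p between 0.0781 and 0.189 from limma. Without WT1 and KO2 the log2 fold change was -0.48. *Dkk2* stood at 20.5%, 16.1%, and 30.7% of *Dkk3* in WT and at 31.8%, 122%, and 99.5% in KO. *Dkk1*, the best-studied inhibitor of the family, had a mean FPKM under 1, with 0.179, 0.038, and 0.325 in WT and 1.39, 0.668, and 0.258 in KO, and was not tested. *Dkk4* was listed at 0 in all 6 libraries.

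**Figure D3:**
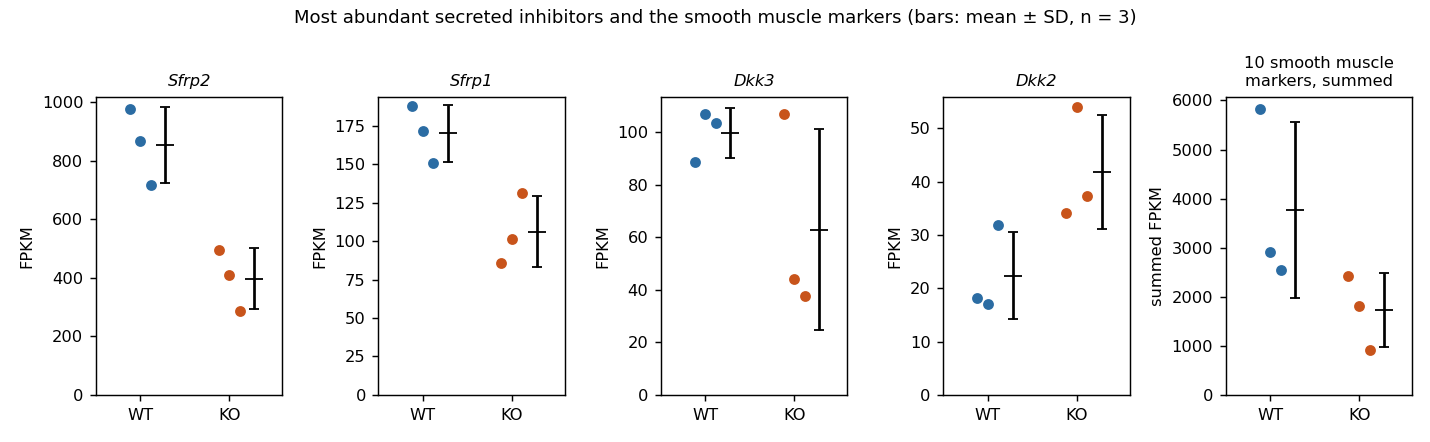
FPKM of *Sfrp2*, *Sfrp1*, *Dkk3*, and *Dkk2* and the summed FPKM of 10 SMC markers in each library (points), with the mean ± SD of the 3 libraries of each group and axes that start at 0. WT and KO do not overlap for *Sfrp2*, *Sfrp1*, *Dkk2*, or the SMC markers, whereas the *Dkk3* value of KO0 lies with WT.

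The promoters of 4 members are given because their groups did not overlap and RefSeq (GRCm38.p6) lists a single start for each. *Sfrp2* and *Wnt9a* were lower and *Dkk2* and *Wnt4* higher in KO. Each sequence is the 250 bases before the start, 5′ to 3′ on the plus strand, and capitals mark a GC box (GGGCGG or CCGCCC) or a TATA box (TATAAA or TTTATA), which were searched for on both strands together with the TCF/LEF core (CTTTGA or TCAAAG) and the CArG box of SRF, and matches may overlap. They lie at chr3:83766071-83766320 (*Sfrp2*), chr3:132085042-132085291 (*Dkk2*), chr4:137277385-137277634 (*Wnt4*), and chr11:59306680-59306929 (*Wnt9a*).
Sfrp2: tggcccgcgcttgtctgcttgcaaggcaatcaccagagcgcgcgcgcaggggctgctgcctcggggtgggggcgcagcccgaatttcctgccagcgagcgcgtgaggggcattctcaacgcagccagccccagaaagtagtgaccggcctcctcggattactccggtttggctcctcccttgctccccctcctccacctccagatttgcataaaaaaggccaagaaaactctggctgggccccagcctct
Dkk2: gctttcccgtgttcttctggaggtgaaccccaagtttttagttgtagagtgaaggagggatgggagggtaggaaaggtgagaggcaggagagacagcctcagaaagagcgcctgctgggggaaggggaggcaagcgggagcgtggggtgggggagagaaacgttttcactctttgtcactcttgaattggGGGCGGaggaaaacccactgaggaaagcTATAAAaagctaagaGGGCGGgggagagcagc
Wnt4: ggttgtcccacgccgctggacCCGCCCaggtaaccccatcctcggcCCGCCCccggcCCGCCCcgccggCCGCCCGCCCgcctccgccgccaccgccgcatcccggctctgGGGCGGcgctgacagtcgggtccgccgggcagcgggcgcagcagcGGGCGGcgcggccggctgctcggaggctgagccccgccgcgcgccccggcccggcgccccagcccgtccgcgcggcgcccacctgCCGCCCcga
Wnt9a: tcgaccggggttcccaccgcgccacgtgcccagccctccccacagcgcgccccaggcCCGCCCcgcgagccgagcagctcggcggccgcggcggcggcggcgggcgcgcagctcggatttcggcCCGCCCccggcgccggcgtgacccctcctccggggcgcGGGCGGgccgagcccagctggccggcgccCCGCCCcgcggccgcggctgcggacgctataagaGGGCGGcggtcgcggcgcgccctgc

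The 4 sequences differ in base composition and motifs. The GC content was 63.6% for *Sfrp2*, 55.6% for *Dkk2*, 85.2% for *Wnt4*, and 84.4% for *Wnt9a*. *Wnt4* held 8 GC boxes, *Wnt9a* 5, *Dkk2* 2, and *Sfrp2* 0, and only *Dkk2* among the 4 held a TATA box by these letters, at position -32 from the first transcribed base. The TCF/LEF core and the CArG box were in none of these 4 windows, which says nothing about the factors themselves. RefSeq entries were found for 25 of the 37 members, with 28 starts, and *Sfrp1* and *Dkk3* were among those without one. Of the 28 windows, 20 (71.4%) held a GC box, 4 (14.3%) a TATA box, 4 (14.3%) the TCF/LEF core, and 0 a CArG box, and the shares over all 32851 promoters of this length were 32.7%, 12.4%, 13.8%, and 1.47%. The median GC content was 69.4% over the members' windows and 52.4% over all promoters.

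The rest of the pathway was read from 8 lists of other Wnt genes, 115 genes in all, of which 112 were in the table and 90 were tested. By limma, 0 of the 90 had an adjusted p under 0.05, 6 were lower and 4 higher at an unadjusted p under 0.05, and the groups did not overlap for 8 lower and 11 higher genes. Over all genes tested, 4.97% were lower and 3.31% higher at the same unadjusted threshold, and 7.84% and 8.21% did not overlap. The median log2 fold change of the 90 was 0.10. The co-receptors had 0 of 11 tested genes at an unadjusted p under 0.05. *Lrp6* was at between 37.6 and 41.4 FPKM in WT and between 37.9 and 38.7 in KO, *Lrp5* at between 27.4 and 38.01 and between 22.7 and 40.4, and *Ror2* at between 11.7 and 14.1 and between 7.90 and 12.1. *Ctnnb1*, which encodes β-catenin, had a log2 fold change of 0.13 (SE 0.24, adjusted p = 0.869 from limma).

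Among 15 tested targets of β-catenin, 2 were lower at an unadjusted p under 0.05 and 0 were higher, against 4.97% and 3.31% of all genes tested. *Axin2*, the most widely used readout of the pathway, was at 2.90, 4.06, and 2.29 FPKM in WT and at 1.62, 3.01, and 6.04 in KO. Its groups overlapped, and the log2 fold change was 0.04 (SE 0.63, adjusted p = 0.984 from limma). *Lef1*, a target and nuclear partner of β-catenin, was at 0.617, 1.39, and 0 FPKM in WT and at 4.51, 2.15, and 0.702 in KO. The log2 fold change of 2.09 (SE 1.38, adjusted p = 0.687 from limma) became 0.97 without WT2, and the groups overlapped. *Nkd1*, a feedback inhibitor, was at 20.6, 21.4, and 13.7 FPKM in WT and at 8.24, 10.8, and 9.01 in KO. Its groups did not overlap, and the log2 fold change was -0.96 (SE 0.28, unadjusted p = 0.00898, adjusted p = 0.524 from limma). *Apcdd1*, an inhibitor at the cell surface, was at 22.3, 29.2, and 10.98 FPKM in WT and at 5.02, 3.88, and 8.61 in KO, with a log2 fold change of -1.79 (SE 0.46, unadjusted p = 0.00488, adjusted p = 0.468 from limma). The target *Jag1* was at 71.4, 72.9, and 64.1 FPKM in WT and at 119, 94.3, and 74.2 in KO, without overlap. Its log2 fold change was 0.44 (SE 0.20, unadjusted p = 0.0635, adjusted p = 0.611 from limma). Over the 15 targets, 6 estimates were below 0 and 9 above.

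The other inhibitors had 1 gene lower, *Apcdd1*, and 2 higher, *Frzb* and *Sostdc1*, of 8 tested. *Sostdc1*, which binds Lrp co-receptors and BMPs, was at 0.559, 0.543, and 0 FPKM in WT and at 0.574, 18.1, and 34.6 in KO, so that KO0 lay just above WT0 (log2 fold change 4.43, SE 1.59, unadjusted p = 0.0251, adjusted p = 0.564 from limma). *Wif1* was listed at 0 in 5 libraries and was not tested. In receptor turnover, the R-spondin *Rspo3*, which protects Frizzled from degradation, was at 7.27, 8.99, and 5.89 FPKM in WT and at 90.3, 39.6, and 26.5 in KO. It had the smallest p of the 90 genes (log2 fold change 2.63, SE 0.44, unadjusted p = 0.000391, adjusted p = 0.298 from limma). *Lgr6*, an R-spondin receptor, was lower, at 44.8, 28.7, and 24.0 FPKM in WT and 22.3, 10.3, and 4.59 in KO (unadjusted p = 0.0191, adjusted p = 0.545 from limma).

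The remaining genes at an unadjusted p under 0.05 were *Tmed5*, a cargo receptor of the secretory pathway, which was higher with a log2 fold change of 1.33, and *Cby1*, *Tcf7l1*, and *Daam1*, which were lower. *Cby1*, a β-catenin antagonist, had a log2 fold change of -1.39 (SE 0.38, adjusted p = 0.50029 from limma). *Tcf7l1*, a mostly repressive TCF factor, had -0.98 (SE 0.30, adjusted p = 0.54 from limma). *Daam1*, a formin of planar polarity signalling, had -0.50 (SE 0.20, adjusted p = 0.591 from limma). Of the 17 tested planar polarity genes, *Daam1* was the only one at that threshold.

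**Figure D4:**
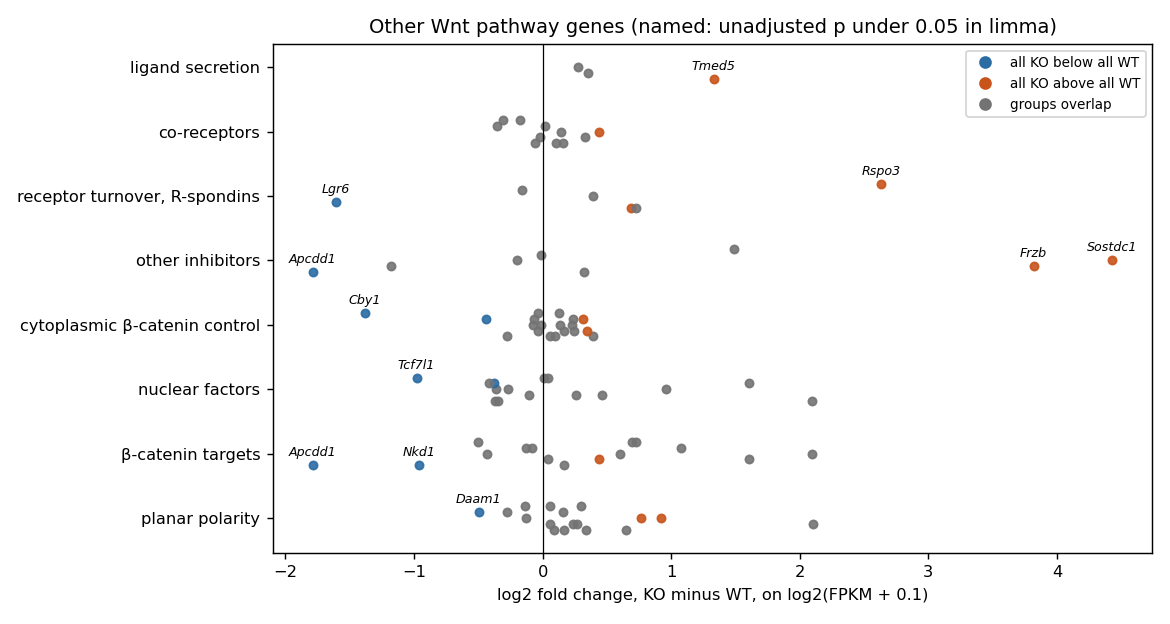
Log2 fold change (KO minus WT, on the log2(FPKM + 0.1) scale) of the other Wnt pathway genes, 1 point per tested gene and list, coloured by whether the groups overlapped, with names for genes at an unadjusted p under 0.05. *Rspo3*, *Frzb*, and *Sostdc1* lie at 2.63 or more, and *Apcdd1*, which is on 2 lists, lies at -1.79.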

How the data were processed

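The deposited table holds FPKM, 1 column per library, which the authors computed with Cufflinks from trimmed reads aligned by TopHat2 on mm10. Versions, annotation, strand, and scaling between libraries are not given in the sources used here, and total depth cannot be read from FPKM.

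Libraries were grouped by title. The 12955 genes whose mean reached 1 FPKM were fitted as log2(FPKM + 0.1) in limma 3.58.1 (R 4.3.3, lmFit, then eBayes with trend, two-sided tests, Benjamini-Hochberg adjustment over all of them, threshold 0.05). For low genes, the pseudocount shrinks fold changes on this scale, while a single value of 0 can enlarge them. Cuffdiff, which works on alignments, was not rerun. The fit was tested on simulated data. Positions came from GENCODE vM21. Alternatives covered pseudocount, filter, scaling, variance model, replicate block, and each library left out. The fit without WT1 and KO2 and the Sfrp levels relative to SMC markers were added after seeing the data. Members and lists were chosen with earlier results of these data known. Given in full were members without overlap, the 5 largest fold changes, the 3 most abundant of each family, and *Wnt1*. Of other pathway genes, those without overlap or at an unadjusted p under 0.05 and 9 preset genes could be named.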

Additional observations from a re-analysis of the deposited data

How the results depend on the processing

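Over the 17 alternatives, 0 members had an adjusted p under 0.05 in any. The count of members at an unadjusted p under 0.05, which was 3, was 4 with a pseudocount of 1, with quantile normalization, and without the mean-variance trend, and 2 without WT1 and KO2, the libraries with most heart muscle RNA. It ranged from 2 to 5 with single libraries left out, with 5 without WT2 or KO0 and 2 without WT0. The count of members whose groups did not overlap, 7, became 3 when the minimum mean was 5 FPKM, where fewer members are tested. The 1 gene of the whole table with an adjusted p under 0.05 became 2 without the trend and 2 without moderation, 3 without WT1 and KO2, and 1 to 3 with single libraries left out (3 without WT1, KO0, or KO2). The replicate block gave 3 members at an unadjusted p under 0.05 and 0 adjusted. Same-numbered libraries correlated by 0.122, -0.076, and -0.009 in their deviations from the group mean, and other pairs by between -0.12 and 0.144. With 3 libraries per group these deviations must cancel within the group. The values therefore cannot decide whether the numbers pair littermates.

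Estimates of several genes changed sign, and the cause was not tested. With quantile normalization these were *Fzd1* (0.076), *Fzd4* (0.046), *Sfrp4* (-0.12), *Lrp6* (0.030), and *Axin2* (-0.36). *Sfrp5* was at -0.46 with a pseudocount of 0.01. Without WT1 and KO2, *Wnt2b* was at -0.17, *Fzd1* at 0.32, *Fzd4* at 0.0062, *Fzd6* at -0.068, *Sfrp5* at -1.25, and *Axin2* at -0.21. With single libraries left out, log2 fold changes ran from -0.33 to 0.57 for *Wnt2b*, -0.27 to 0.21 for *Fzd1*, -0.13 to 0.12 for *Fzd2*, -0.14 to 0.020 for *Fzd4*, -1.03 to 0.23 for *Fzd5*, -0.20 to 0.57 for *Fzd6*, -0.75 to 1.96 for *Sfrp4*, -0.62 to 2.75 for *Sfrp5*, -0.042 to 0.31 for *Ctnnb1*, and -0.42 to 0.49 for *Axin2*. In all, 754 of 786 values for 47 genes kept their direction and 32 reversed it. This share does not measure robustness, because changing the filter, the variance model, or the block leaves a fold change as it is. Crossing the adjusted threshold was not close either, as the smallest adjusted p among these values was 0.18 from limma.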
